A study of Mus musculus with 6 samples.

Results

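The mRNA of 10 genes linked by name or role to BMP signalling was compared in SL4 cells, while signalling itself was not measured. The genes were chosen by name, by a rule that used no measured value but was set with earlier results of these data known: Bmp1, Bmp2, Bmp4, Bmpr1a, Bmpr2, Smad1, Smad6, Id1, Id2 and Id3. Each symbol named a row of the deposited table, which lists 53700 genes, and 8 of the 10 had a mean over the 6 libraries of 1 TPM or more and were tested. SL4 is a mouse colorectal cancer (CRC) line that carries luciferase. The pLV-SEMA6A cells stably overexpress SEMA6A from a lentivirus (3 libraries), and the pLV-Control cells lack that overexpression (3 libraries). The labels do not say whether the control cells carry an empty vector or whether the libraries of a group came from separate cultures. P-values therefore measure the spread between these libraries, which may be technical, and a consequence of SEMA6A and a difference between cell lines cannot be told apart.

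Sema6a, the overexpressed gene, reached 98.7, 118 and 112 TPM in pLV-SEMA6A cells and was listed at 0 in the 3 control libraries, in the direction of the labels. TPM corrects for the length of a transcript and for the library total, so levels can be set side by side between genes, but the number of reads behind a value is unknown. Whether a low value in the table is a failed estimate was not tested. The mitochondrial gene mt-Co3 had only 0.33 TPM in replicate 2 of pLV-SEMA6A, while the other libraries had 140.6 TPM or more. Of 12 colon epithelial markers, 12 had a mean under 1 TPM, and Epcam, Cdx1 and Cdx2 were listed at 0 in every library. The colorectal origin in the label was therefore not visible in these markers. Endothelial markers (6 of 6) and immune markers (5 of 6) also had means under 1 TPM. Of 8 fibroblast markers, 5 were at 1 TPM or more.

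Bone morphogenetic proteins (BMPs) are secreted dimers of the TGF-β family that bind a complex of type I and type II serine/threonine kinase receptors. The type II receptor activates the type I receptor, which phosphorylates SMAD1, SMAD5 and SMAD9, and these enter the nucleus with SMAD4. The inhibitory SMAD6 and SMAD7 limit the signal, and the Id genes are classical direct targets that restrain differentiation, among others in the intestinal crypt. Whether SMAD proteins were phosphorylated cannot be read from mRNA.

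The Id genes were higher and Smad1 and Bmpr2 lower in pLV-SEMA6A cells. Id3 rose 2.08-fold, Id1 1.95-fold and Id2 1.44-fold in mean TPM, while Smad1 fell to 0.627 and Bmpr2 to 0.779 of the pLV-Control mean. Bmp1, which encodes a proteinase and not a BMP-type ligand, rose 1.14-fold, and Bmpr1a stood at 1.06 times the pLV-Control mean without passing the test. Smad6 fell to 0.603 of the pLV-Control mean at an adjusted p close to the threshold. Bmp2 and Bmp4 were listed at 0 TPM in all 6 libraries. In a bulk measurement of this kind, fewer cells that express a gene and less of its mRNA per cell cannot be told apart.

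Log2 fold changes, with their standard errors (SE), were fitted to log2(TPM + 1), where the added 1 shrinks the changes of weakly expressed genes, with limma and Benjamini-Hochberg adjustment over the 12510 genes tested. A gene passed the test at an adjusted p under 0.05, and was a differentially expressed gene (DEG) if its log2 fold change was also over 0.5 in size. Of the 8 members tested, 7 passed, 4 higher and 3 lower in pLV-SEMA6A. Among all genes tested 47.6% passed, 19.5% higher and 28.2% lower. DEGs numbered 3 of 8 (2 higher, 1 lower), against 15.9% of all genes (5.12% higher and 10.8% lower). The libraries of the 2 groups did not overlap in 7 of the 8 members, and in 58.5% of all genes. The median log2 fold change was 0.13 over the 8 members and −0.064 over all genes tested. With each library centred on its median, the members past the test were 5 higher and 2 lower, and the genes past it over the whole table changed from 2436 higher and 3523 lower to 3370 higher and 2474 lower.

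**Figure D1:**
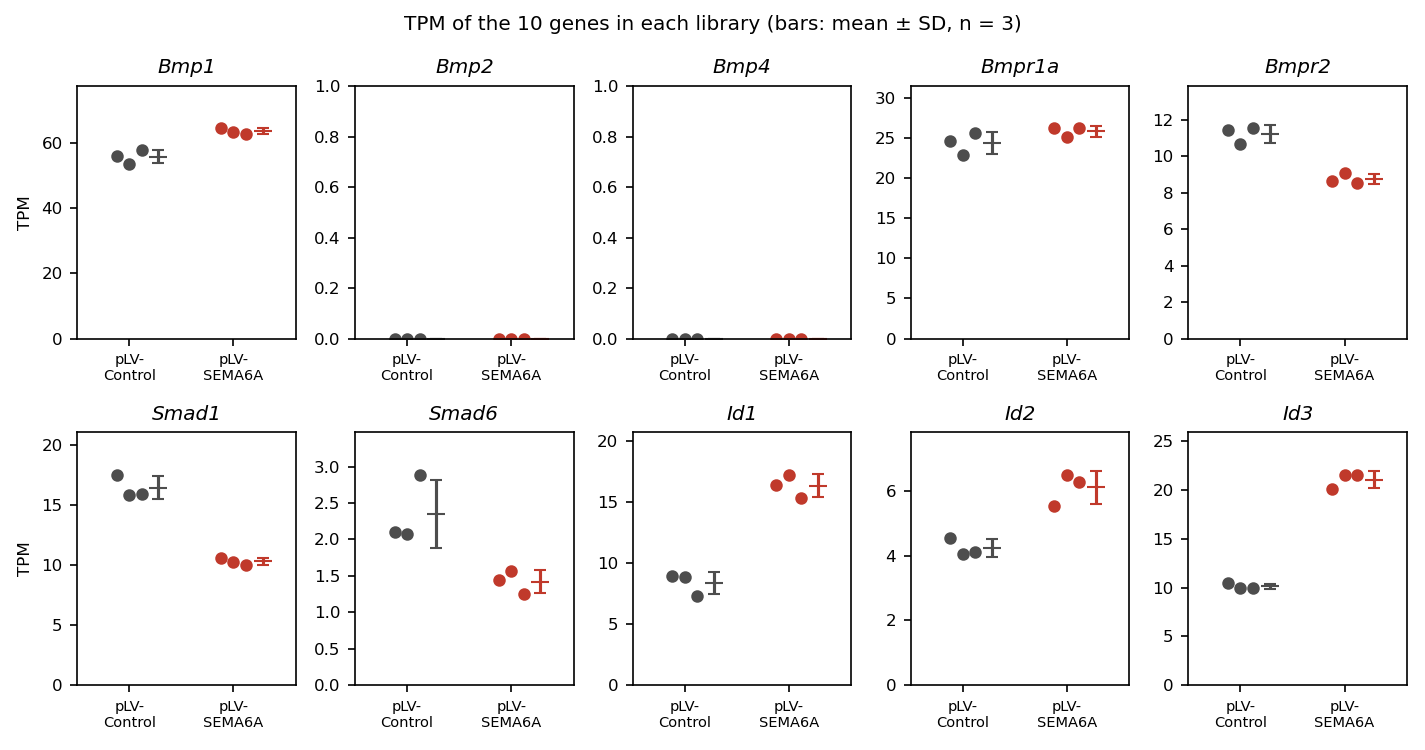
TPM (vertical axes, each starting at 0) of the 10 genes in the 3 pLV-Control (grey) and 3 pLV-SEMA6A (red) libraries, with 1 point per library and the mean ± SD beside the points. The groups are apart for Bmp1, Bmpr2, Smad1, Smad6, Id1, Id2 and Id3, overlap for Bmpr1a, and lie at 0 for Bmp2 and Bmp4.

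Of the ligand genes, Bmp6 alone reached a mean of 1 TPM. BMP2 and BMP4 are the ligands best known from intestinal stroma, and both genes were listed at 0 in each library. Of the 14 BMP ligand genes listed for the pathway, 8 were at 0 in every library and 13 had a mean under 1 TPM. Bmp6 encodes a ligand that in the liver controls the iron hormone hepcidin. Bmp6 was at 17.6, 19.2 and 18.6 TPM across pLV-Control replicates, against 11.5, 12.8 and 10.5 TPM in those of pLV-SEMA6A, so that each pLV-SEMA6A library lay below each pLV-Control library. Its log2 fold change was −0.63 (SE 0.079, limma adjusted p = 0.000977), and it was a DEG. Bmp6 made up 98.9% ± 0.881 of the summed TPM of the 14 ligand genes in pLV-Control and 98.6% ± 0.799 in pLV-SEMA6A (SD, n = 3 each), shares that overlapped between the groups.

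The extracellular antagonists hold BMPs away from their receptors. Of 16 listed, 9 had a mean under 1 TPM, among them Nog and Chrd (noggin and chordin), and 4 of the 7 tested passed, 2 higher and 2 lower, near the 47.6% of all genes. Bmper, a secreted modulator of BMPs, averaged 8.85 ± 0.806 TPM in pLV-Control and fell to 5.20 ± 0.420 TPM (SD, n = 3 each), or by log2 fold change −0.67 (limma adjusted p = 0.00157). Fstl1, a follistatin-like glycoprotein, averaged 51.3 ± 1.19 TPM in pLV-Control and fell to 35.4 ± 1.94 TPM (SD, n = 3 each), or by log2 fold change −0.52. Grem1, a BMP antagonist of the crypt base, was at 30.1 ± 1.33 and 33.8 ± 0.790 TPM (SD, n = 3 each). The log2 change of 0.16 (limma adjusted p = 0.0265) lost the threshold in 6 of 14 alternatives, with an adjusted p between 0.00412 and 0.0810. Fstl3, a secreted binder of activins, had a log2 fold change of 0.28. Furin, a protease that cleaves BMP precursors, had a log2 fold change of 0.26. Of 4 convertases listed, 2 were tested and Furin alone passed, where 47.6% of all genes did.

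Bmpr1a encodes a type I receptor for BMP2 and BMP4. The pLV-Control libraries held 24.5, 22.9 and 25.6 TPM of it, against 26.2, 25.0 and 26.2 TPM in pLV-SEMA6A, and the groups overlapped. The change amounted to a log2 fold change of 0.082, with a 95% interval from −0.048 to 0.21 and an adjusted p of 0.255 from limma. It passed only after each library was centred on its median, at a log2 fold change of 0.18 (limma adjusted p = 0.0370, with a range over the alternatives of 0.0370 to 0.576). An opposite-strand gene, Gm17110, overlaps its exons in GENCODE M21, and whether reads were counted by strand is not given in the sources used here.

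Bmpr2, the BMP type II receptor, moved the other way. Its levels were 11.5, 10.7 and 11.5 TPM in the pLV-Control libraries, against 8.63, 9.08 and 8.51 TPM in those of pLV-SEMA6A, with no overlap. On the log2 scale the difference was −0.33 (SE 0.061, limma adjusted p = 0.00537). It passed in each of 14 alternatives, but shrank to −0.18 with quantile normalization. The difference log2 Bmpr1a minus log2 Bmpr2 within a library, taken on log2(TPM + 1) and so nearly free of the scaling of that library, was 1.04, 1.03 and 1.09 in pLV-Control and 1.5, 1.37 and 1.51 in pLV-SEMA6A. The mean shift was 0.41, and an exact permutation test gave p = 0.1 (two-sided, 0.15 adjusted over 6 pairs), where 0.1 is the smallest p that 3 libraries against 3 allow.

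The other receptors gave no common direction. Acvr1, a type I receptor that binds BMP6, had a log2 fold change of 0.22 (limma adjusted p = 0.00499), from 23.5 ± 0.396 to 27.4 ± 0.617 TPM (SD, n = 3 each). Acvr2a, a type II receptor shared with activins, had a log2 fold change of 0.086 (limma adjusted p = 0.377). Acvr2b, its paralog, was at 1.58 ± 0.191 and 0.980 ± 0.104 TPM (SD, n = 3 each), with a log2 fold change of −0.38 (limma adjusted p = 0.0790). Acvr2b passed only in limma without the trend (adjusted p = 0.00909, with a range over 13 alternatives of 0.00909 to 0.277). Bmpr1b, the second BMP type I receptor, was at 1.41 and 1.29 TPM on average and did not pass. Eng, the co-receptor endoglin, had a log2 fold change of −0.34. Of the 13 receptors and co-receptors, Bmpr1a and Bmpr2 included, 11 were tested and 3 passed, 1 higher and 2 lower, and 0 were DEGs by limma (4 at an unadjusted p under 0.05). Among all genes 47.6% passed and 15.9% were DEGs.

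The summed type I receptors Bmpr1a, Bmpr1b and Acvr1 were at 49.2 ± 1.52 TPM (SD, n = 3) in pLV-Control, against 54.5 ± 0.917 TPM (SD, n = 3) in pLV-SEMA6A. The summed type II receptors Bmpr2, Acvr2a and Acvr2b were at 20.6 ± 0.151 and 18.1 ± 0.772 TPM. The share of Bmpr2 in the type II sum went from 55.3%, 52.2% and 55.9% in the pLV-Control libraries to 46.9%, 48.9% and 49.6% in the pLV-SEMA6A libraries. These 3 quantities did not overlap between groups, each at an exact permutation p of 0.1 (two-sided, 0.133 adjusted over 12 sums and shares).

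Smad1 encodes a receptor-activated SMAD of the BMP branch, and it fell. The pLV-Control libraries held 17.5, 15.8 and 15.9 TPM of it, against 10.62, 10.25 and 10.02 TPM in pLV-SEMA6A. Even the highest pLV-SEMA6A library lay well below the lowest pLV-Control library. In log2 terms it changed by −0.62 (SE 0.061, limma adjusted p = 0.000345), and it stayed between −0.67 and −0.51 over 14 alternatives, past the threshold in each. Of the 12510 log2 fold changes, it was number 1116 from the lowest.

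Smad5, the paralog of Smad1 that the same receptors phosphorylate, averaged 22.9 ± 0.825 TPM (SD, n = 3) for pLV-Control, against 20.2 ± 0.493 TPM (SD, n = 3) in pLV-SEMA6A. Its log2 fold change of −0.17 (limma adjusted p = 0.0234) lost the threshold in 7 of 14 alternatives. Among these were the replicate number as a block (limma adjusted p = 0.0505), centring on the median and quantile normalization, and the adjusted p ranged from 0.0182 to 0.217. Within a library, log2 Smad1 minus log2 Smad5 was −0.36, −0.46 and −0.55 in pLV-Control and −0.89, −0.87 and −0.96 in pLV-SEMA6A. The shift of −0.45 separated the groups, with an exact permutation p of 0.1 (two-sided, 0.15 adjusted over 6 pairs). Smad9, the remaining receptor-activated SMAD of this branch, had a mean under 1 TPM and was not tested. Smad1 made up 41.4% ± 1.75 of the summed Smad1, Smad5 and Smad9 in pLV-Control and 33.4% ± 0.729 in pLV-SEMA6A (SD, n = 3 each), and the sum went from 39.7 ± 1.23 to 30.8 ± 0.632 TPM.

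Smad6 encodes an inhibitory SMAD that competes with SMAD4 for activated SMAD1. It was low, at 2.10, 2.07 and 2.89 TPM across pLV-Control replicates, against 1.44, 1.57 and 1.25 TPM in those of pLV-SEMA6A. The groups did not overlap, and the spread in pLV-Control came mainly from replicate 3. The fitted log2 change was −0.46 (SE 0.15, limma adjusted p = 0.0449). The call was lost in 10 of the 13 alternatives that tested Smad6, including each of the 6 fits without 1 library. The adjusted p ranged from 0.0200 to 0.166, the log2 fold change was −0.35 without pLV-Control replicate 3 and −0.29 with quantile normalization, and it reached −0.71 with a pseudocount of 0.01. Smad6 per 100 of Smad1 was 14.4 ± 3.30 in pLV-Control and 13.8 ± 1.43 in pLV-SEMA6A (SD, n = 3 each), and log2 Smad1 minus log2 Smad6 overlapped between the groups (exact permutation p = 0.4, two-sided). That difference moved by −0.16, and by 0.012 with a pseudocount of 0.1.

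Smad7, the inhibitory SMAD shared with the TGF-β branch, was at 26.9 ± 3.86 and 29.7 ± 0.714 TPM (SD, n = 3 each). Its log2 fold change was 0.15 (limma adjusted p = 0.247), and without pLV-Control replicate 3 it was 0.26 (limma adjusted p = 0.00993; the range over the alternatives was 0.00993 to 0.536). Smad4, the common partner, had a log2 fold change of 0.25 (limma adjusted p = 0.00402), from 73.2 ± 3.19 to 87.0 ± 2.72 TPM (SD, n = 3 each). Among 14 SMAD ligases, phosphatases and corepressors, 4 passed, 1 higher and 3 lower, with 0 DEGs by limma (7 at an unadjusted p under 0.05), beside 47.6% past the test and 15.9% DEGs over the whole table. They were Ctdsp1 (log2 fold change 0.38) and its paralog Ctdsp2 (−0.31), which encode small C-terminal-domain phosphatases, and the ubiquitin ligase genes Smurf2 (−0.24) and Nedd4l (−0.13). The last pair lost the threshold in 7 and 9 of 14 alternatives.

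**Figure D2:**
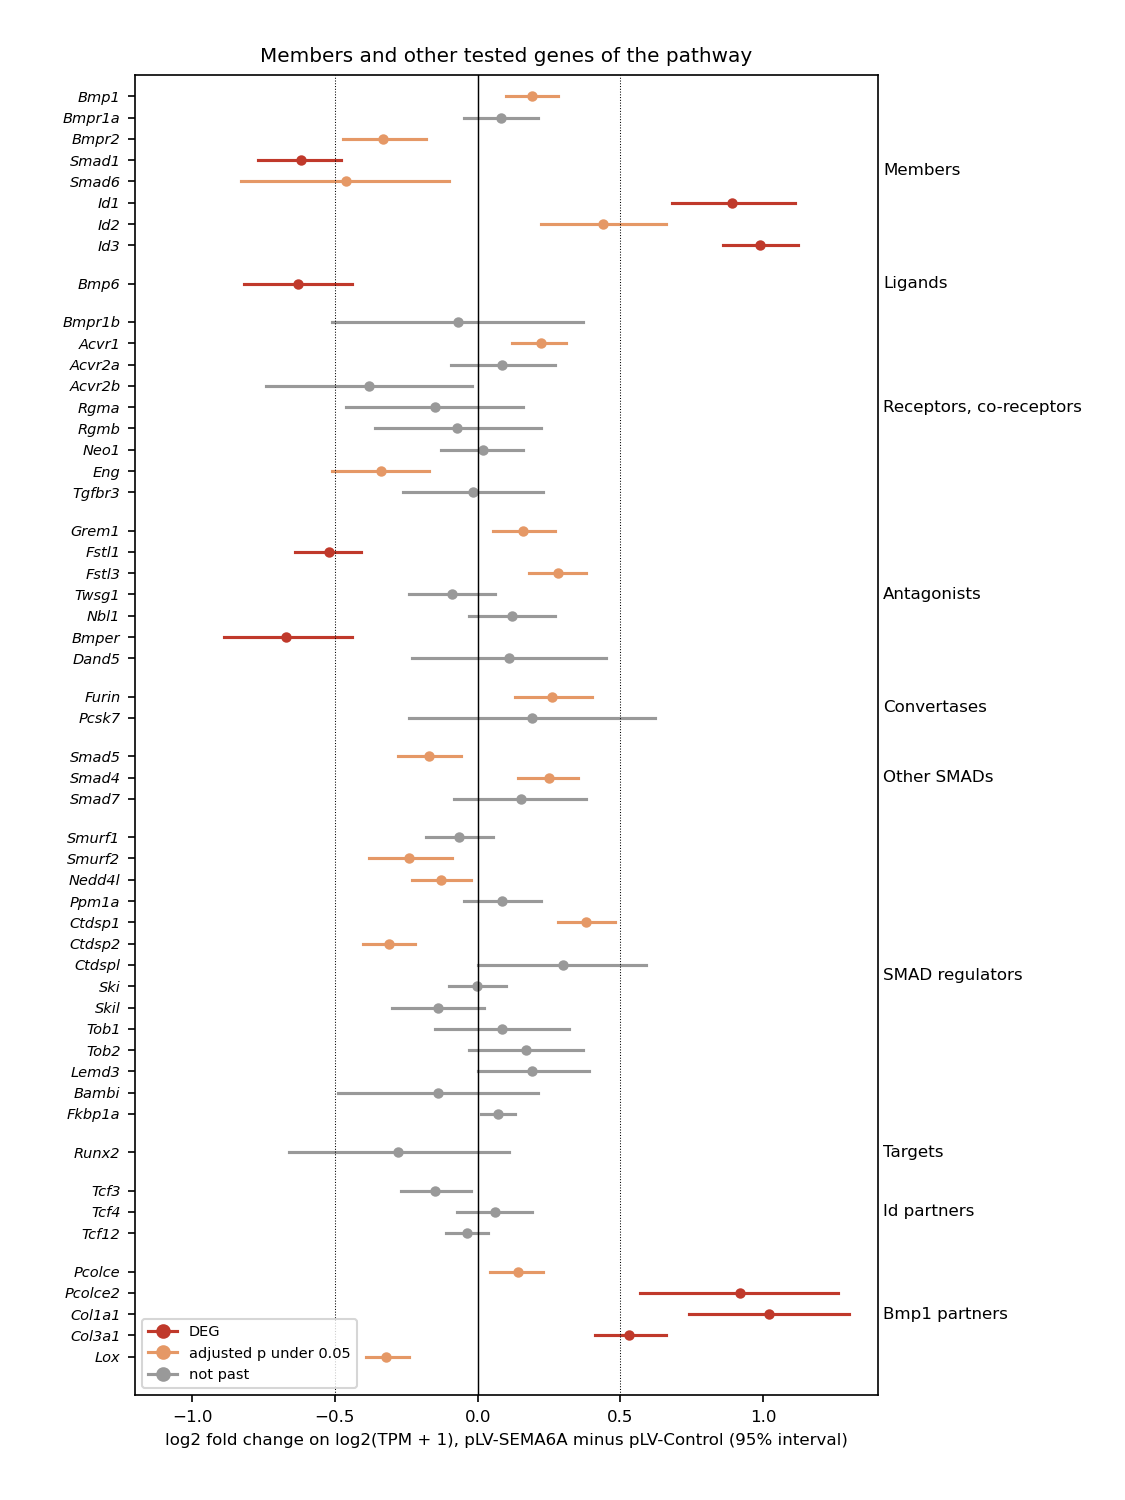
Log2 fold change (horizontal axis, on log2(TPM + 1), pLV-SEMA6A minus pLV-Control) with its 95% interval for the 8 tested members and the 45 other tested genes of the pathway, grouped by role. Dotted lines mark −0.5 and 0.5. Among the members, Id1 and Id3 lie to the right of 0.5 and Smad1 to the left of −0.5.

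Id proteins are helix-loop-helix proteins with no DNA-binding domain, which pair with E proteins such as TCF3, TCF4 and TCF12 and keep them off DNA. Upstream sequence is shown for Id2 and Id3, which were both higher in pLV-SEMA6A, and for Smad1, which was lower. The windows are the 250 bases before the RefSeq start on GRCm38.p6, 5′ to 3′ on the gene's strand, with GGCGCC and GTCTG (or its reverse complement CAGAC), motifs bound by SMADs, in capitals. The Id3 window is chr4:136143572-136143821 on the plus strand, the Id2 window chr12:25096093-25096342 on the minus strand, and the Smad1 window chr8:79399429-79399678 on the minus strand.
Id3: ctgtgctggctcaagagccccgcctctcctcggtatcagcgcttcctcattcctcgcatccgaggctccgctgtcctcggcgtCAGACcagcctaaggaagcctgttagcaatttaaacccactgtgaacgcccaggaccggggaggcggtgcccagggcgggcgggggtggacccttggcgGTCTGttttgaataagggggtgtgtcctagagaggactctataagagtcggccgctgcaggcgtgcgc
Id2: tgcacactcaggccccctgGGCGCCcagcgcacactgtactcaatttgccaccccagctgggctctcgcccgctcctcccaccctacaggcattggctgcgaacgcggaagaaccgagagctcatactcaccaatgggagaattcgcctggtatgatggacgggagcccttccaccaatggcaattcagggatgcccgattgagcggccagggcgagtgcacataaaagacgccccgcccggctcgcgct
Smad1: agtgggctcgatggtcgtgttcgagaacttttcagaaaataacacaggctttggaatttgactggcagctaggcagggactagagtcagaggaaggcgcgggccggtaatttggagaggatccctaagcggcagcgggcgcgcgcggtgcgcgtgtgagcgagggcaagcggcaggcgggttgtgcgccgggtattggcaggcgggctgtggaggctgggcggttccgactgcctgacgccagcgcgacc
The Id3 window holds GTCTG or its reverse complement at 2 places, the first bases of which lie 167 and 68 bases before the start. The Id2 window holds GGCGCC, 231 bases before the start, and the E-box letters CANNTG, which E proteins bind, at 196 bases. The Smad1 window holds none of these. The windows did not divide by direction: of the members not printed, Bmpr2, which was lower, holds GGCGCC 105 bases before the start, Bmpr1a, which did not pass, holds it at 198 bases, Smad6, a BMP target, holds none of the 3 motifs, and Bmp4, listed at 0, holds CANNTG at 3 places. Of 32851 windows of this length, 9.59% hold GGCGCC, 42.2% hold GTCTG on either strand and 66.2% hold CANNTG (the 3 motifs do not overlap in these windows), so a match is a description and not evidence of a binding site. RefSeq windows were matched for 7 of the 10 members. Bmp1, Bmp2 and Id1 had none.

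Id3 showed the largest log2 fold change among the 8 members tested. The pLV-Control libraries held 10.44, 10 and 9.92 TPM of it, against 20.1, 21.6 and 21.5 TPM in pLV-SEMA6A. The libraries of each group lay close together and the groups far apart. The log2 difference was 0.99 (SE 0.053, 95% interval 0.86 to 1.12, limma adjusted p = 3.4e-05). It was number 165 from the highest of the 12510 log2 fold changes, and lay between 0.97 and 1.10 over 14 alternatives.

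Id1, the target most often used as a readout of BMP signalling, was at 8.91, 8.90 and 7.30 TPM across pLV-Control replicates, against 16.4, 17.3 and 15.4 TPM in those of pLV-SEMA6A, with no overlap. Its fitted log2 fold change was 0.89 (SE 0.090, limma adjusted p = 0.000394), number 212 from the highest. It lay between 0.81 and 1.02 over 14 alternatives, past the threshold in each.

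Id2 was the lowest of the 3 Id genes in TPM and had the smallest of their log2 fold changes. The pLV-Control libraries held 4.56, 4.05 and 4.11 TPM of it, against 5.54, 6.52 and 6.30 TPM in pLV-SEMA6A. The groups did not overlap, and pLV-SEMA6A replicate 1 lay nearest to pLV-Control. As a log2 fold change this was 0.44 (SE 0.092, limma adjusted p = 0.00845), which passed the test but not the minimum of 0.5. It was 0.53 with a pseudocount of 0.01 or after centring on the median, 0.52 with a pseudocount of 0.1 and 0.62 with quantile normalization, and under these Id2 counted as a DEG. Without pLV-SEMA6A replicate 1 it was 0.50, over the minimum before rounding, and Id2 counted as a DEG there too. Gm6175 shares 1.6% of the 31-base stretches of the Id2 transcripts, whereas Id1 and Id3 share 0 with other genes. Id4 was listed at 0 in 4 libraries and at 0.02 and 0.03 TPM in the others.

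The 3 Id genes were also set against each other. Within a library, log2 Id1 minus log2 Id2 was 0.83, 0.97 and 0.70 in pLV-Control and 1.41, 1.28 and 1.17 in pLV-SEMA6A. Log2 Id2 minus log2 Id3 was −1.04, −1.12 and −1.10 in pLV-Control and −1.69, −1.59 and −1.63 in pLV-SEMA6A. These differences moved by 0.45 and −0.55 and did not overlap between groups (exact permutation p = 0.1 each, two-sided, 0.15 adjusted over 6 pairs). For Id1 minus Id3 the shift of −0.10 lay within the spread and the groups overlapped (exact permutation p = 0.4, two-sided, 0.4 adjusted). The share of Id2 in the summed TPM of the 3 genes was 18.7% ± 0.885 in pLV-Control and 14.0% ± 0.761 in pLV-SEMA6A (SD, n = 3 each).

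The summed TPM of Id1, Id2 and Id3 was 23.9, 22.9 and 21.3 in pLV-Control and 42.0, 45.4 and 43.2 in pLV-SEMA6A. Of their partners, 0 of 3 passed by limma (1 at an unadjusted p under 0.05), with log2 fold changes of −0.15 for Tcf3 (adjusted p = 0.0528), 0.060 for Tcf4 (adjusted p = 0.395) and −0.037 for Tcf12 (adjusted p = 0.353). Tcf3 passed in 2 of 14 alternatives, with an adjusted p between 0.0302 and 0.448. Their summed TPM was 247 ± 9.62 in pLV-Control and 247 ± 5.45 in pLV-SEMA6A (SD, n = 3 each; exact permutation p = 0.8, two-sided). Id mRNA per 100 of E protein mRNA was 9.78, 9.58 and 8.26 in pLV-Control and 17.2, 17.9 and 17.8 in pLV-SEMA6A, with no overlap (exact permutation p = 0.1, two-sided, 0.133 adjusted over 12 sums and shares).

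**Figure D3:**
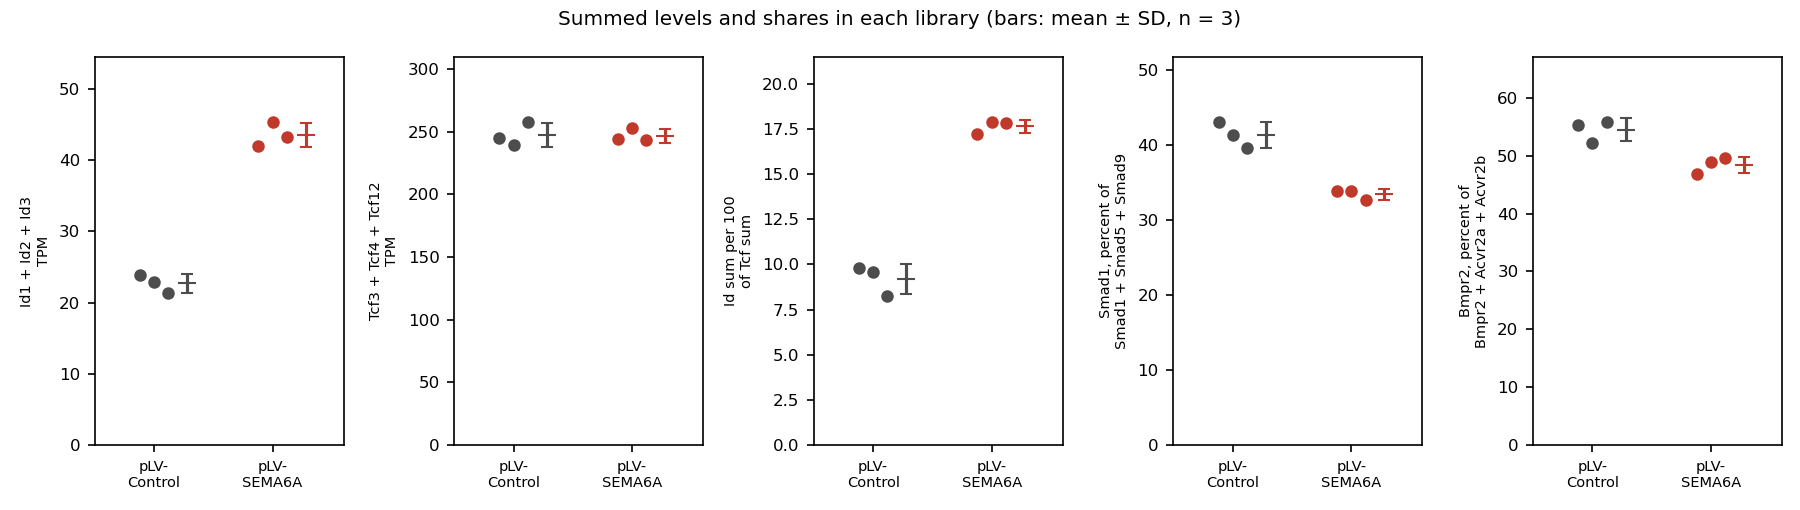
Summed TPM, ratios and shares (vertical axes, each starting at 0) in the 3 pLV-Control (grey) and 3 pLV-SEMA6A (red) libraries, with the mean ± SD beside the points. The Id sum separates the groups while the sum of Tcf3, Tcf4 and Tcf12 overlaps, and the shares of Smad1 and Bmpr2 in their receptor-activated SMAD and type II receptor sums are lower in each pLV-SEMA6A library.

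Few BMP target genes other than the members were expressed enough to test. Of 14 target genes, Id1, Id2, Id3 and Smad6 among them, 7 were tested and 4 passed, 3 higher and 1 lower, and these 4 are the members just named. Among all genes tested the share past the test was 47.6%. Of the remaining 3, Smad7 is given above, Bambi, a decoy receptor, was at 1.26 ± 0.111 and 1.05 ± 0.0709 TPM (SD, n = 3 each) with a log2 fold change of −0.14 (limma adjusted p = 0.465), and Runx2, a bone transcription factor, had a log2 fold change of −0.28 (limma adjusted p = 0.198). Runx2 passed only without pLV-SEMA6A replicate 1, at −0.47 (limma adjusted p = 0.00605; the range over the alternatives was 0.00605 to 0.447). Atoh8, Msx1, Msx2, Hey1, Dlx5, Smad9 and Id4 had means under 1 TPM and were not tested. Among these Atoh8, a transcription factor gene, was at 0.26, 0.22 and 0.59 TPM in pLV-Control cells and at 0.75, 0.77 and 0.76 TPM in pLV-SEMA6A cells, a ratio of means of 2.13 with no overlap. Smad9 went the other way, at 0.36, 0.37 and 0.48 TPM in pLV-Control and 0.28, 0.32 and 0.34 TPM in pLV-SEMA6A. Its ratio of means was 0.777, also with no overlap. Groups did not overlap in 58.5% of all genes tested, nor in Bambi, which was among those genes. That share leaves out genes with a mean under 1 TPM, such as Atoh8 and Smad9, for which none was computed.

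Bmp1 carries the BMP name but encodes a secreted metalloproteinase of the tolloid family, which removes the C-propeptides of fibrillar procollagens, activates lysyl oxidase and cleaves chordin. It was the most abundant of the 10 members, at 56.0, 53.6 and 57.7 TPM across pLV-Control replicates, against 64.5, 63.5 and 62.7 TPM in those of pLV-SEMA6A. Each pLV-SEMA6A library lay above each pLV-Control library, by a small margin relative to the level. The log2 fold change was 0.19 (SE 0.038, limma adjusted p = 0.00726), and it passed in each of 14 alternatives, between 0.16 and 0.28. Of the 10 genes of its family, enhancers and substrates, 6 were tested and 6 passed, 5 higher and 1 lower, Bmp1 included, where 47.6% of all genes passed (19.5% higher and 28.2% lower).

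Pcolce2, an enhancer of procollagen cleavage, was at 10.6, 11.5 and 11.6 TPM across pLV-Control replicates, against 22.1, 17.7 and 27.2 TPM in those of pLV-SEMA6A, for a log2 change of 0.92 (SE 0.14, limma adjusted p = 0.00255). Pcolce, its more abundant paralog, had a log2 fold change of 0.14 and lost the threshold in 7 of 14 alternatives. Among the substrates, Col3a1 rose from 119 ± 8.05 to 172 ± 3.85 TPM and Col1a1 from 1.27 ± 0.106 to 3.60 ± 0.244 TPM (SD, n = 3 each), while Lox fell from 73.3 ± 0.375 to 58.7 ± 1.46 TPM, a log2 fold change of −0.32. Col1a1 and Col3a1 are also fibroblast markers. Of the 8 fibroblast markers, 5 were tested and 4 were DEGs, 2 higher (Col1a1, Col3a1) and 2 lower (Pdgfra, Pdgfrb), against 15.9% of all genes (5.12% higher and 10.8% lower). The summed TPM of the marker list ran from 126 to 142 in pLV-Control and from 183 to 189 in pLV-SEMA6A, and 0 of the 8 were listed at 0 in every library. Most of that sum was Col3a1, so it largely repeats the collagen result. Pdgfra went from 1.76 to 0.780 TPM and Pdgfrb from 10.5 to 6.66 TPM on average, against the rise of Col1a1 and Col3a1. The part of the fibroblast markers in the Bmp1 and collagen results was not tested.

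**Figure D4:**
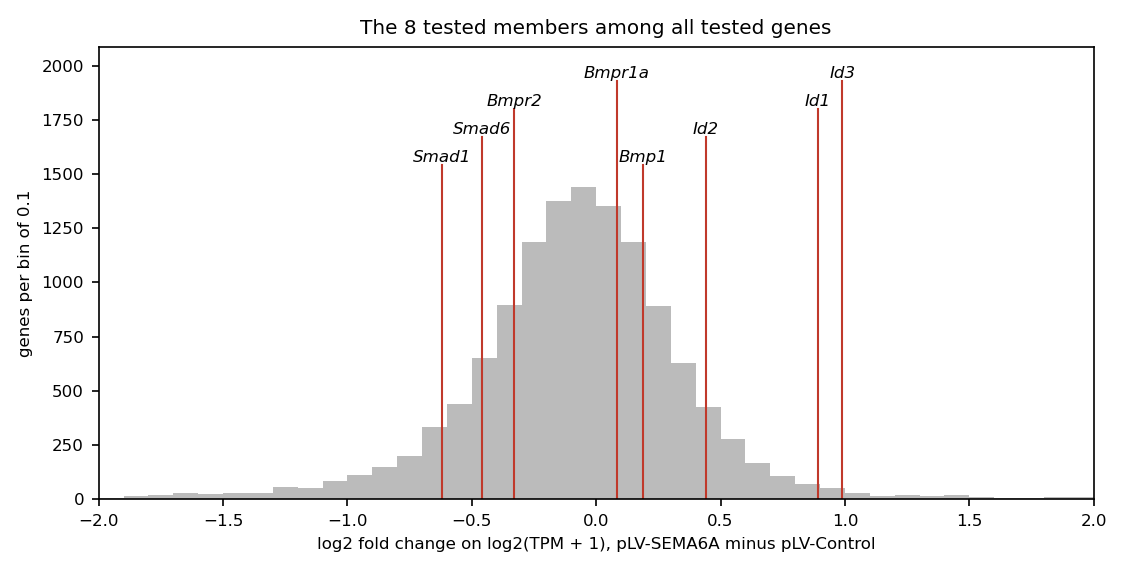
Number of genes per bin of 0.1 (vertical axis) by log2 fold change (horizontal axis, pLV-SEMA6A minus pLV-Control) for the genes tested, drawn from −2 to 2, with red lines at the 8 tested members. Id1 and Id3, at 0.89 and 0.99, lie in the upper tail, Smad1, at −0.62, in the lower part, and Bmpr1a, at 0.082, near the centre.

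Over the pathway as a whole the directions were mixed. Of 79 listed genes that are not members, 45 were tested and 19 passed, 10 higher and 9 lower, with a median log2 fold change of 0.018. Over all genes tested 47.6% passed and the median was −0.064, so the count is near the background and is no result about the pathway. DEGs numbered 6 of the 45, also near the 15.9% of all genes, of which Pcolce2, Col1a1 and Col3a1 were higher and Bmp6, Fstl1 and Bmper lower. Over the alternatives, Fstl1 ran from −0.56 to −0.43 and Col3a1 from 0.48 to 0.63. Both therefore fell under the minimum of 0.5 in some alternatives, while Pcolce2, Col1a1, Bmp6 and Bmper stayed over it in size.

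**Figure D5:**
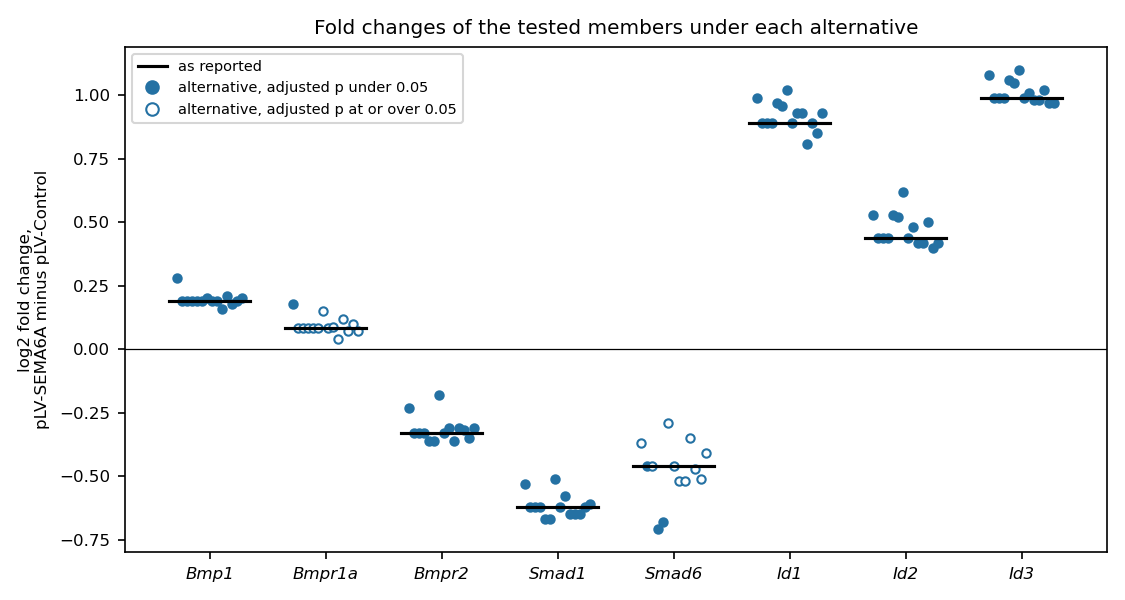
Log2 fold change (vertical axis, pLV-SEMA6A minus pLV-Control) of the 8 tested members as reported (black lines) and under each alternative (points, filled where the adjusted p was under 0.05). Id1, Id2, Id3, Smad1, Bmpr2 and Bmp1 are filled throughout, Smad6 is open in 10 of 13 and Bmpr1a filled in 1 of 14.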

How the data were processed

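RNA was sequenced from SL4 cells, with 3 pLV-Control and 3 pLV-SEMA6A libraries grouped by the titles in the labels. The authors deposited TPM values per gene, rounded to 2 decimals, with a mean column per group, which was not used. The submitters' processing notes name Bowtie2, HISAT, RSEM and the build mm39, without roles or versions, and the annotation is not given in the sources used here. The listed TPM summed to 984475 to 986444 per pLV-Control library and to 977400 to 977972 per pLV-SEMA6A library. Genes at 1 TPM or more numbered 12537 to 12565 in pLV-Control and 12237 to 12304 in pLV-SEMA6A. Read numbers are unknown, so no counting interval was given.

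TPM values were transformed as log2(TPM + 1), genes with a mean under 1 TPM over the 6 libraries were left out, and pLV-SEMA6A was compared with pLV-Control in limma 3.58.1 (R 4.3.3, moderated with a mean trend, no block), with Benjamini-Hochberg adjustment over all genes tested. Sums, shares and within-library differences were compared with exact permutation tests over libraries. The fit was tested on simulated data. Libraries that carry the same replicate number did not deviate together (correlation −0.079 to −0.023 after subtracting the mean of each group), so the numbers were not taken as pairs.

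The members and gene lists were chosen with earlier results of these data known. Named were the members, the DEGs of each list and a preset group of receptors, SMADs and Id partners; other genes (such as Grem1, Eng, Furin, Ctdsp1, Lox and Runx2) were named after their values were seen. Alternatives changed the pseudocount, filter, scaling, trend, block, minimum fold change and libraries. Shared sequence and overlaps were read from GENCODE M21 and upstream windows from RefSeq, both on GRCm38. That is not the build of the files, so the coordinates of the upstream windows are those of GRCm38.p6 and hold for that build alone.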

Additional observations from a re-analysis of the deposited data

How the results depend on the processing

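Of the 8 members tested, 7 passed the adjusted p threshold as reported, and 6 or 7 under each alternative. Among all genes tested, 47.6% passed as reported. Id1, Id2, Id3, Smad1, Bmpr2 and Bmp1 passed in all 14 alternatives with their direction kept, whereas Smad6 lost the threshold in 10 of 13 and Bmpr1a gained it in 1 of 14. No member, and 0 of the pathway genes past the threshold, turned its direction in an alternative, while 11 pathway genes that were not past it took both signs, Bmpr1b, Bambi and Tcf12 among them. DEGs among the members numbered 3 as reported, 5 with a pseudocount of 0.1 and 5 with 0.01. After centring on the median they numbered 4, and with quantile normalization also 4. A smaller pseudocount enlarges the fold change of low genes such as Id2 and Smad6. Over all genes, DEGs were 700 higher and 1535 lower with 0.1, and 708 and 1571 with 0.01. With a minimum log2 fold change of 1, 0 members were DEGs whatever their p, because the largest change, 0.99 for Id3, lay below it. Id3 was at 1.05 with a pseudocount of 0.1 and at 1.06 with 0.01. Leaving out 1 library gave 6 members past the threshold each time, 3 to 4 DEGs and 15 to 20 pathway genes. Over all genes, 5050 to 5255 of the 12465 to 12543 tested passed in these fits. DEGs over all genes were 616 to 631 higher and 1280 to 1346 lower. Pairs that did not overlap numbered 4 to 6 (6 without pLV-Control replicate 3). Overlap is less likely with a library fewer, and no share was computed for other pairs of genes.

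With the replicate number as a block (replicate block), 6 members and 15 of the other pathway genes passed, beside 5227 of the 12510 genes tested. Smad6 (adjusted p = 0.106 from limma) was the member lost. Of the 19 pathway genes past the threshold, 14 stayed past it in every alternative that tested them, and 13 of the 26 others passed in at least 1. Scaling moved the balance of directions: the median log2(TPM + 1) differed by −0.093 between groups, and of the genes past the threshold 40.9% were higher as deposited, 57.7% after centring on the median and 52.5% with quantile normalization (2991 higher, 2702 lower). DEGs were 640 higher and 1347 lower as deposited, 1002 and 961 after centring, and 886 and 943 with quantile normalization. The number of reads is unknown, so the precision of low values such as Smad6 cannot be given.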
